A study of Mus musculus with 120 samples.

Results

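RNA of the medulla, the lowest part of the brainstem, was compared at 26 weeks of age between mice that carry the knock-in allele 175QK772T of the ataxin-1 gene Atxn1 and mice that carry the allele 175Q. The libraries were taken by their titles: 4 of 175QK772T and 4 of 175Q, which are 8 of the 120 libraries of the series. All mice were C57BL/6J. Each 175QK772T and each 175Q mouse had 1 expanded allele beside 1 normal allele with 2 glutamines (2Q), and 4 wild-type (WT) medullas of the same age had normal alleles and were given beside them. Titles and genotype fields call the line 175Q while the descriptions of the same libraries give a shorter repeat, so the length of the repeat in these mice was taken as the titles give it. The knock-in changes Atxn1 in every cell of the body, each library came from a whole piece of tissue of 1 mouse, and each genotype had 2 females and 2 males.

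Spinocerebellar ataxia type 1 is an inherited ataxia in which a run of glutamines in ataxin-1 is too long. Ataxin-1 is found in the nucleus and the cytoplasm of neurons, enters the nucleus through a nuclear localization signal near its end, and binds there the transcriptional repressor capicua. The medulla holds the inferior olive, whose neurons send climbing fibres to the Purkinje cells of the cerebellum, along with motor, sensory and monoamine nuclei that serve swallowing, breathing and posture. The K772T change puts threonine in place of a lysine of the nuclear localization signal. The comparison of 175QK772T with 175Q therefore asks which transcripts differ between 2 long alleles that differ in that signal.

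Atxn1 lies on chromosome 13 (GRCm38, 45549755 to 45965008, minus strand). The stretch that codes for the signal is shown as the reference genome has it, on the coding strand, at chr13:45557163-45557219 in the last of the 8 exons of the coding transcript used, to place the changed codon. The capitals mark the lysine codon AAG, codon 747 of the 791 codons of this mouse transcript, taken here as the residue that the label K772T names by a numbering of another ataxin-1 sequence.

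Atxn1 signal: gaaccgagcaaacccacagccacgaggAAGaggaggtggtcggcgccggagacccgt

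Levels are given as CPM, the counts of a gene scaled to a common library size, and are not per length. Atxn1 was at 54.3, 56.4, 48.3 and 55.7 CPM in 175QK772T medullas, against 60.9, 54.1, 54.7 and 51.1 CPM in 175Q medullas. WT medullas had 41, 40.3, 42.6 and 45.4 CPM. Both mutant groups lay above every WT library and overlapped each other. The log2 fold change of 175QK772T over 175Q was -0.04 ± 0.06 (standard error, 4 against 4 mice; edgeR quasi-likelihood test, adjusted p = 0.734). Its sign turned with small choices: the value was 0.017 without 175QK772T replicate 3, 0.011 without 175Q replicate 1 and 0.048 with an offset for gene length. Counts per gene do not separate the long allele from the normal one and do not show the K772T change.

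The 12 medulla libraries had 32.5 to 54.7 M counted read pairs (M for mega) and 5.2 to 5.94% of counts on mitochondrial genes. The labelled tissue carried its markers: hindbrain Hox genes, the glycine transporter Slc6a5, the glutamate transporter Slc17a6, Chat and Tph2 were present in all 8 mutant libraries. Of 5 Hox genes of the spinal cord, Hoxc6 (139 to 302 counts), Hoxb9 (114 to 387 counts) and Hoxd9 (35 to 106 counts) were present in every mutant library as well, Hoxc8 had 1 to 6 counts and Hoxc9 had 0. Choroid plexus RNA came with the tissue in unequal amounts. Ttr, the main transcript of choroid plexus, was at 11.3, 3378, 36.1 and 13.3 CPM in 175QK772T medullas and at 2616, 276, 43.1 and 178 CPM in 175Q medullas, against 2600.1, 3511, 972 and 2559 CPM in WT medullas. 175QK772T replicate 2 and 175Q replicate 1 stood far above the other mutant libraries, and counts are given below also without these 2 libraries rich in choroid plexus RNA. A trend with gene length set 2 libraries apart as well: the median log2 CPM of the shortest 20% of genes minus that of the longest 20% was 0.283 in 175QK772T replicate 1 and -0.207 in 175Q replicate 1, and lay between -0.106 and 0.0704 in the other 10 libraries.

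Of 19787 genes tested, 1872 differed between 175QK772T and 175Q at an edgeR adjusted p below 0.05, which is 9.46% of genes. 1057 were higher (5.34%) and 815 lower (4.12%) in 175QK772T. Most differences were small: the median absolute log2 fold change of the called genes was 0.28, 359 of them reached 0.5 and 88 reached 1, with 54 of these 88 higher and 34 lower. The 4 values of 175QK772T and the 4 of 175Q did not overlap in 1518 of the 1872 called genes and in 2955, or 14.9%, of all tested genes. Genes were called on these same values, so the lack of overlap is no separate support. The same 12 libraries gave 412 called genes for 175QK772T against WT (2.08%) and 3663 for 175Q against WT (18.5%); these comparisons share libraries with the one described here, so their values are set side by side and not counted together.

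How many genes passed depended on which library was left out. The count was 1134 without 175QK772T replicate 1, 1101 without 175QK772T replicate 4, 830 without 175Q replicate 1 and 730 without 175Q replicate 4. It was 1351 to 1838 without any other single mutant library. Without the 2 libraries rich in choroid plexus RNA 668 genes were called, 440 higher and 228 lower, and 606 of them had been called in the same direction with all libraries. Without the 2 libraries of strongest length trend 502 were called, 337 higher and 165 lower, 464 of them called in the same direction with all libraries. None of the 1872 called genes changed its sign in these fits. Fits with fewer mice also have less power, and no other pair of libraries was left out for comparison.

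Called genes were not spread evenly over gene length. The median summed exon length was 3020 bases for genes that rose, 6511 for genes that fell and 3616 for the rest. Among the shortest 20% of genes 258 rose and 35 fell, and among the longest 20% 78 rose and 390 fell. With an offset that removes each library's length trend 1662 genes were called, 968 higher and 694 lower. The lean by length was then much smaller: 141 rose and 64 fell among the shortest 20%, and 211 rose and 191 fell among the longest 20%. The part of the length trend and of choroid plexus RNA in the single results was not tested, and where a call was lost without these libraries that is said beside it. 175Q replicate 1 is in both pairs of libraries. Where a call was lost without either pair, the first adjusted p given is without the pair rich in choroid plexus RNA and the second without the pair of strongest length trend.

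**Figure D1:**
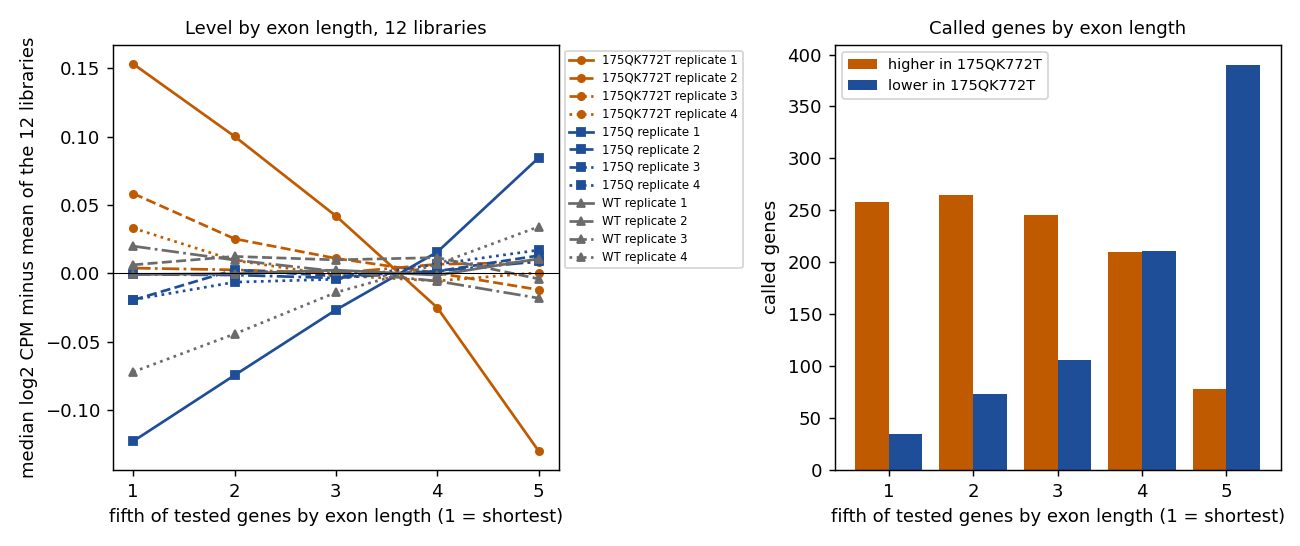
Left, the median log2 CPM of each of 12 medulla libraries minus the mean of all 12, for 5 equal groups of genes by summed exon length; lines and markers stand for single libraries. 175QK772T replicate 1 ran highest in short genes and lowest in long genes, and 175Q replicate 1 ran the other way. Right, the number of called genes in each length group, with 258 higher and 35 lower among the shortest and 78 higher and 390 lower among the longest.

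Genes of the inferior olive and of climbing fibres were among the largest rises, 4 of the first 12 by size. Of the 11 tested members of that list 6 rose and 0 fell in 175QK772T against 175Q, with a median log2 fold change of 0.37, beside 5.34% of all tested genes higher and a median of 0.0048 over all of them. The list was drawn up in the knowledge that Htr5b, Ano2 and C1ql1 were among the strongest falls of 175Q against WT, so its direction is not independent of those data. In a piece of tissue, fewer cells of a type and less RNA per cell cannot be told apart, here and for every cell type below.

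Htr5b, a serotonin receptor of olive neurons, was at 5.74, 8.44, 6.08 and 5.51 CPM in 175QK772T medullas, against 1.54, 2.1, 1.54 and 1.73 CPM in 175Q medullas. WT medullas had 13.1, 13.9, 12.5 and 14.7 CPM. The 3 genotypes did not overlap, with 175QK772T between 175Q and WT. The log2 fold change over 175Q was 1.91 ± 0.15 (edgeR adjusted p = 4.31e-05), and against WT it was -1.07 ± 0.13 in 175QK772T and -2.98 ± 0.15 in 175Q. C1ql1, which olive neurons secrete from climbing fibres onto Purkinje cells, was at 24.4, 30.6, 20.3 and 21.7 CPM in 175QK772T, against 6.33, 7.69, 11.4 and 8.53 CPM in 175Q and 27.3, 33.7, 28.5 and 34.1 CPM in WT. Every 175QK772T library was above every 175Q library, and the 175QK772T values reached into the WT range (1.51 ± 0.15 over 175Q, edgeR adjusted p = 0.000146).

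Ano2, a calcium-activated chloride channel, had 5.65, 11, 5.54 and 6.62 CPM in 175QK772T, against 1.7, 2.52, 2.41 and 3.16 CPM in 175Q and 11.3, 8.91, 7.85 and 10.8 CPM in WT. The highest of the 175QK772T libraries was replicate 2, which was also the highest of its group for Htr5b, C1ql1 and Pou4f1. Without the 2 libraries rich in choroid plexus RNA the log2 fold changes were 1.14 for Ano2, 1.65 for Htr5b, 1.26 for C1ql1 and 0.91 for Pou4f1, against 1.57 ± 0.21, 1.91 ± 0.15, 1.51 ± 0.15 and 1.07 ± 0.11 with all libraries, and all 4 calls held (edgeR adjusted p at most 0.00369). Pou4f1, a homeobox transcription factor of olive neurons, was at 12.9, 19.7, 13.3 and 15.3 CPM in 175QK772T and, with little spread, at 7.32, 7.12, 7.33 and 7.49 CPM in 175Q; WT had 20.7, 20.7, 18.3 and 19.5 CPM.

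The other 2 members that rose, named after their values were seen, were the transcription factor Foxp2 (0.77 ± 0.13, edgeR adjusted p = 0.00355) and the calcium-binding protein Calb2 (0.34 ± 0.06, edgeR adjusted p = 0.00489). Crh, the corticotropin-releasing hormone that olive neurons also make, did not pass: it was at 5.53, 3.62, 3.49 and 2.92 CPM in 175QK772T, against 3.16, 2.57, 3.02 and 3.19 CPM in 175Q and 15.3, 18.6, 14.4 and 15 CPM in WT. Both mutant groups lay far below WT (log2 fold changes against WT of -2.04 ± 0.16 in 175QK772T and -2.41 ± 0.16 in 175Q), and between them the value was 0.37 ± 0.16 (edgeR adjusted p = 0.170). Cartpt, Cacna1g, Gjd2 and Slc17a6, the last of them shared by many glutamate neurons, had log2 fold changes between 0.10 and 0.28 and did not pass. Between 6 and 7 members rose when any library was left out, 6 without the libraries rich in choroid plexus RNA and 7 without those of strongest length trend.

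**Figure D2:**
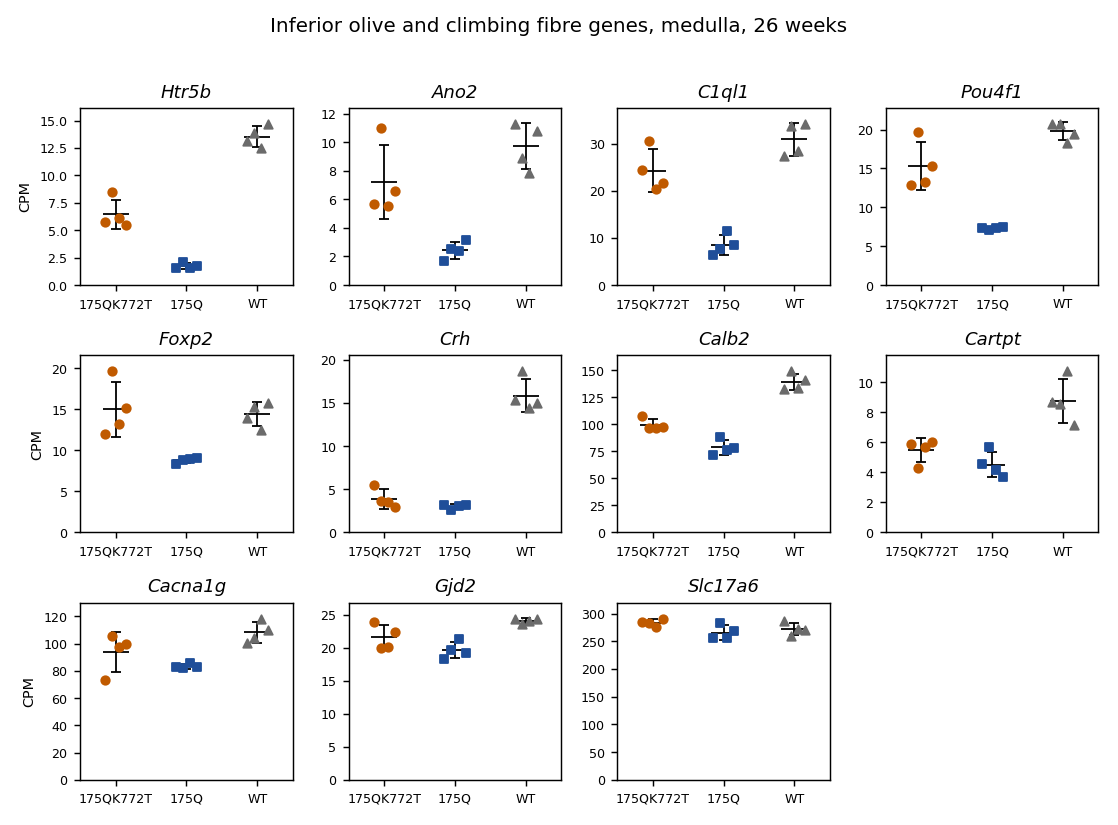
CPM of the 11 inferior olive and climbing fibre genes in each medulla library of 175QK772T (circles), 175Q (squares) and WT (triangles); the bar is the mean and the whiskers ± 1 SD of 4 mice. Htr5b sits between 175Q and WT in 175QK772T, Foxp2 overlaps WT, and Crh is low in both mutant groups.

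Beyond the olive list, the largest rises among genes of at least 1 CPM with no overlap included Nat8f5, Ighm, Npy4r, Scand1, Tac2, Trp63 and mt-Tm. Ighm, the constant part of the IgM heavy chain, was at 67.7, 79.6, 57.6 and 56.7 CPM in 175QK772T, against 25.4, 25.8, 22.5 and 22.6 CPM in 175Q, and the WT libraries were spread from 58 to 153 CPM (1.41 ± 0.21 over 175Q, edgeR adjusted p = 0.00176).

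Tac2, which codes for neurokinin B, rose by 1.08 ± 0.21 (edgeR adjusted p = 0.00627), with 5.00 to 6.92 CPM in 175QK772T, against 2.36 to 3.75 CPM in 175Q and 5.29 to 13.1 CPM in WT. Npy4r, a receptor of the pancreatic polypeptide family, rose by 1.23 ± 0.24 at 1.18 to 1.53 CPM in 175QK772T, against 0.328 to 0.76 CPM in 175Q (edgeR adjusted p = 0.00698); the call was lost without the libraries of strongest length trend (edgeR adjusted p = 0.0553). Scand1, a short gene whose product holds a SCAN domain, rose to 5.71 ± 0.85 CPM in 175QK772T, against 2.66 ± 0.734 CPM in 175Q and 3.53 ± 1.14 CPM in WT (SD, n = 4 each; 1.13 ± 0.15 over 175Q, edgeR adjusted p = 0.00105). Nat8f5 (1.52 ± 0.29, edgeR adjusted p = 0.00645), of a family of near-identical acetyltransferase genes, and mt-Tm (1.04 ± 0.22, edgeR adjusted p = 0.0100), a mitochondrial tRNA, were at under 4 CPM in every library. Trp63, a relative of p53, rose by 1.08 ± 0.24 (edgeR adjusted p = 0.0141); its call was lost without 175Q replicate 1 or 4 (edgeR adjusted p up to 0.0537) and without the libraries rich in choroid plexus RNA (edgeR adjusted p = 0.109).

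The largest falls among genes of at least 1 CPM with no overlap were Plin4, Hif3a, Uts2, Vmn2r1, Calca, Cabyr, Ccn3, Spag6, Olfr920, Ppl, Pla2g4e and Acr. Hif3a, a hypoxia-inducible factor that also answers to glucocorticoids, was at 4.95, 4.92, 5.83 and 5.99 CPM in 175QK772T, against 14.5, 18.8, 9.72 and 12.3 CPM in 175Q (-1.32 ± 0.12 over 175Q, edgeR adjusted p = 9.06e-05). In WT, Hif3a was at 5.17, 8.35, 5.32 and 6.28 CPM. Plin4, a lipid droplet coat protein, was at 4.7, 7.23, 5.96 and 6.29 CPM in 175QK772T, against 20.7, 28.4, 8.26 and 9.57 CPM in 175Q (-1.33 ± 0.26, edgeR adjusted p = 0.00748). In WT, Plin4 was at 6.69, 10.9, 5.58 and 5.95 CPM. For both genes 175Q replicates 1 and 2, the 2 males, were the highest of all libraries; the 2 females of 175Q had lower values that still lay above all 4 of 175QK772T.

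Spag6, a protein of the motile cilium, was above WT in both mutants. It was at 4.15, 4.39, 3.79 and 4.35 CPM in 175QK772T, against 7.22, 9.05, 7.68 and 7.19 CPM in 175Q and 1.73, 1.42, 2.25 and 1.86 CPM in WT. The genotypes did not overlap (-0.90 ± 0.13 over 175Q, edgeR adjusted p = 0.00145; against WT 1.2 ± 0.14 in 175QK772T and 2.1 ± 0.14 in 175Q). Pla2g4e, a phospholipase, fell to 7.03 to 10.3 CPM in 175QK772T, against 13.6 to 17.3 CPM in 175Q and 6.3 to 9.74 CPM in WT (-0.86 ± 0.12, edgeR adjusted p = 0.00120). Ccn3, a secreted matrix protein, fell to 2.21 to 3.22 CPM in 175QK772T, against 3.98 to 5.82 CPM in 175Q and 3.42 to 7.14 CPM in WT, below every WT library (-0.90 ± 0.20, edgeR adjusted p = 0.0144). Its call was lost without 175Q replicate 1 (edgeR adjusted p = 0.0558), without the libraries rich in choroid plexus RNA (0.0917) and without those of strongest length trend (0.132).

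Vmn2r1 (-1.13 ± 0.18, edgeR adjusted p = 0.00288) and Olfr920 (-0.87 ± 0.17, edgeR adjusted p = 0.00749) belong to the large vomeronasal and odorant receptor families, whose members can share reads, and were at under 4 CPM throughout. Acr, a protease of the sperm head, fell by 0.83 ± 0.16 on the log2 scale (edgeR adjusted p = 0.00599), and its 4 values in 175Q medullas lay close together, from 2.79 to 3.04 CPM, against 1.14 to 1.91 CPM in 175QK772T. Cabyr, a sperm tail protein (-0.92 ± 0.21, edgeR adjusted p = 0.0146), and Ppl, a desmosome protein (-0.86 ± 0.20, edgeR adjusted p = 0.0155), lost their calls without 175Q replicate 1 (edgeR adjusted p = 0.0544 and 0.0608) and without the libraries of strongest length trend (0.113 and 0.138). Without the libraries rich in choroid plexus RNA the calls of Cabyr (0.122) and Olfr920 (0.0742) were lost.

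**Figure D3:**
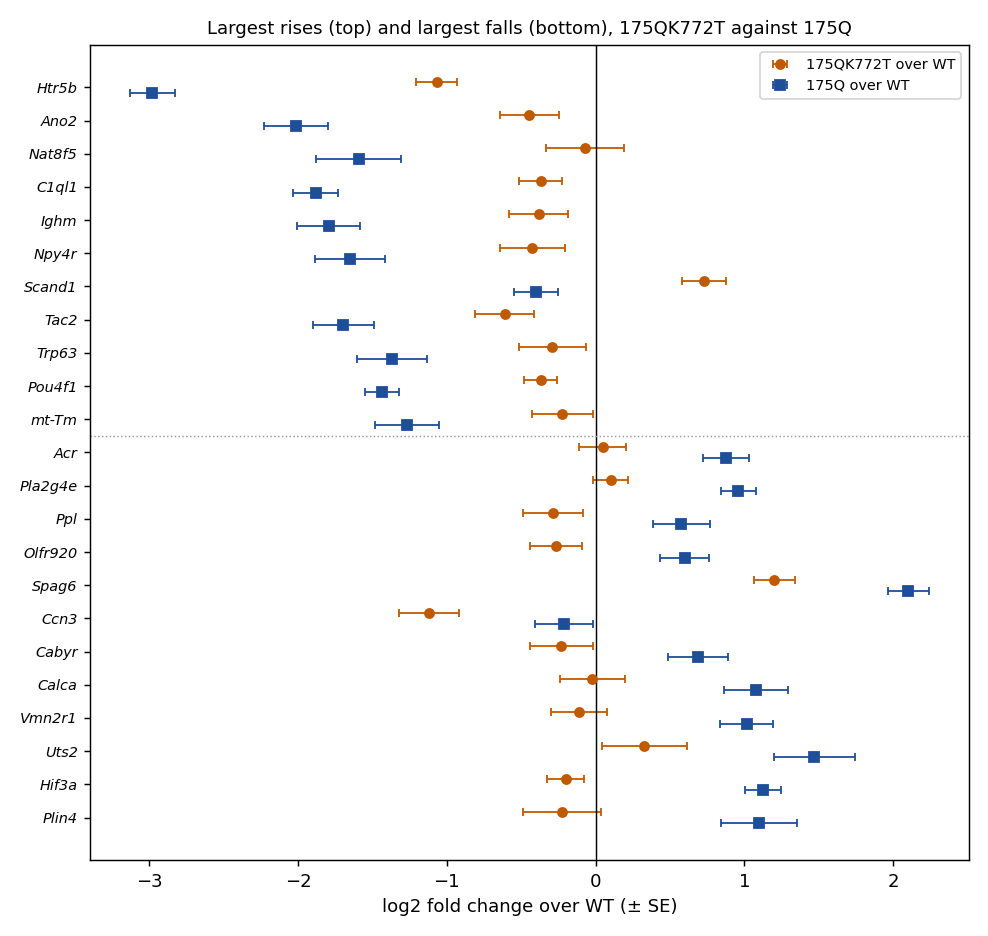
log2 fold changes over WT of 175QK772T (circles) and 175Q (squares), ± standard error, for 11 of the 12 largest rises (top) and the 12 largest falls (bottom) of 175QK772T against 175Q among genes of at least 1 CPM with no overlap. Htr5b was below WT in both mutants and Spag6 above WT in both. The WT libraries are shared by the 2 points of a gene.

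The 6 genes of smallest p included 3 that are not among the changes above. Lypd1, a modulator of nicotinic receptors, was at 56.1, 59.4, 54.8 and 55.8 CPM in 175QK772T, against 34.9, 39.5, 41.2 and 40.0 CPM in 175Q (0.54 ± 0.05, edgeR adjusted p = 6.71e-05). In WT, Lypd1 was at 74.4, 67, 69.3 and 64.4 CPM. Kcng1, a silent potassium channel subunit, was at 11.6, 14.7, 13 and 12.4 CPM in 175QK772T, against 5.6, 6.00, 6.9 and 7.28 CPM in 175Q (1.01 ± 0.10, edgeR adjusted p = 0.00011). In WT, Kcng1 was at 19.7, 22, 20.1 and 21 CPM. Igf2bp3, an RNA-binding protein of embryonic tissue, had a mean below the limit of 1 CPM used for the largest falls: it was at 0.153, 0.0686, 0.0984 and 0.151 CPM in 175QK772T, against 1.07, 1.38, 1.34 and 1.49 CPM in 175Q and 0.0972, 0.0617, 0.158 and 0.0476 CPM in WT. 175QK772T and WT overlapped and 175Q was apart (-3.47 ± 0.33 over 175Q, edgeR adjusted p = 0.00011); DESeq2 gave no adjusted p for this gene.

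Most astrocyte markers rose. Of 16 astrocyte markers 12 rose and 0 fell in 175QK772T against 175Q, with a median of 0.28, beside 5.34% of all tested genes higher. Kcnj10, the inward rectifier by which astrocytes take up potassium, was at 552, 584, 576 and 577 CPM in 175QK772T, against 455, 440.0, 485 and 429 CPM in 175Q and 848, 854, 824 and 826 CPM in WT. Slc1a2, the main glutamate transporter of astrocytes, was at 1137, 1255, 1300.1 and 1403 CPM in 175QK772T, against 1019, 941, 998 and 881 CPM in 175Q and 2138, 1993, 1983 and 2053 CPM in WT. In both genes the 3 genotypes were apart, with 175QK772T between 175Q and WT (0.34 ± 0.05, edgeR adjusted p = 0.00128, and 0.41 ± 0.06, edgeR adjusted p = 0.00241). Slc7a10, an alanine-serine-cysteine transporter, was at 79.4, 77, 76.4 and 78.4 CPM in 175QK772T, against 57.3, 57.7, 58.6 and 52 CPM in 175Q (0.46 ± 0.05, edgeR adjusted p = 0.000385), and Gjb6, connexin 30, rose by 0.32 ± 0.05 (edgeR adjusted p = 0.00259).

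The summed level of the 16 astrocyte markers was 8032 to 8388 CPM in the 4 175QK772T libraries, 6442 to 7058 CPM in 175Q and 10429 to 10803 CPM in WT, with no overlap. 10 of the 16 rose without the libraries rich in choroid plexus RNA and 7 without those of strongest length trend, and 0 fell in either. Of 14 genes of reactive astrocytes and complement 4 rose and 0 fell (median 0.21), beside 5.34% of all tested genes higher. Gfap, the filament protein of astrocytes, was at 474, 507, 473 and 514 CPM in 175QK772T, against 304, 351, 394 and 278 CPM in 175Q (0.57 ± 0.09, edgeR adjusted p = 0.00268). In WT, Gfap was at 584, 502, 619 and 597 CPM. The complement genes C1qa and C1qb, which microglia make, rose by 0.40 ± 0.07 and 0.45 ± 0.07 (edgeR adjusted p = 0.00475 and 0.00268). C3 rose by 0.66 ± 0.19 (edgeR adjusted p = 0.0414), a call lost without any of 9 single libraries, namely 175QK772T replicate 1, 2, 3 or 4, 175Q replicate 1, 2 or 4 or WT replicate 3 or 4 (edgeR adjusted p up to 0.108), and without either pair (0.0921 without the libraries rich in choroid plexus RNA and 0.0610 without those of strongest length trend). Of 12 microglia markers 1 rose, or 8.33%, near the 9.46% called among all tested genes. It was Fcrls (0.47 ± 0.09, edgeR adjusted p = 0.00645), and 11 did not pass (median 0.18). Without 175Q replicate 2 or 175Q replicate 3, 3 markers rose.

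Of 13 genes of myelinating oligodendrocytes 6 rose, 0 fell and 7 did not pass (median 0.18), beside 5.34% of all tested genes higher. Ugt8a, which makes the myelin lipid galactosylceramide, was at 169, 164, 164 and 169.9 CPM in 175QK772T, against 124, 116, 141 and 104 CPM in 175Q (0.46 ± 0.07, edgeR adjusted p = 0.00268). In WT, Ugt8a was at 235, 205, 202 and 211 CPM. The 3 genotypes did not overlap. Fa2h, a fatty acid hydroxylase of myelin lipids (0.30 ± 0.07, edgeR adjusted p = 0.0138), and the myelin protein Mobp (0.33 ± 0.07, edgeR adjusted p = 0.0101) lost their calls without the libraries rich in choroid plexus RNA (edgeR adjusted p = 0.0560 and 0.0542), Fa2h also without those of strongest length trend (0.0816) and Mobp without 175Q replicate 4 (0.0512). The list had 3 members higher without 175Q replicate 4, 2 without the libraries rich in choroid plexus RNA and 3 without those of strongest length trend.

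Among 10 genes of oligodendrocyte precursors 1 rose and 1 fell (median 0.027), beside 5.34% of all tested genes higher and 4.12% lower. Gpr17, a receptor of cells about to make myelin, was at 23.4, 30.2, 25.2 and 21.3 CPM in 175QK772T, against 10.4, 16.7, 19.7 and 15.3 CPM in 175Q (0.69 ± 0.14, edgeR adjusted p = 0.00771). In WT, Gpr17 was at 35.4, 38.9, 35.9 and 33.7 CPM. Bmp4, a growth factor, fell (-0.51 ± 0.14, edgeR adjusted p = 0.0401), a call lost without 175QK772T replicate 1 or 4, 175Q replicate 1, 3 or 4 or WT replicate 1 or 3 (edgeR adjusted p up to 0.132) and without either pair of libraries (0.143 and 0.200).

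Markers of other cell types that the tissue can hold gave 0 to 2 calls a list, beside 9.46% of all tested genes called. Of 12 choroid plexus genes 0 passed, all 12 with positive estimates (median 0.45), and their summed level ran from 521 to 5855 CPM in 175QK772T, 564 to 4392 CPM in 175Q and 1945 to 6083 CPM in WT. The sign of this list rested on 1 library: 8 of the 12 fell without 175QK772T replicate 2, and 3 fell without it and 175Q replicate 1. Of 11 ependymal genes 1 rose, Rarres2 (0.42 ± 0.12, edgeR adjusted p = 0.0401; median of the list 0.35), whose call was lost without 175QK772T replicate 1, 2, 3 or 4, 175Q replicate 1, 2 or 4 or WT replicate 1 (edgeR adjusted p up to 0.133) and without either pair (0.235 and 0.175). All 11 had positive estimates. Their summed level was low, at 44.4 to 61.6 CPM in 175QK772T and 35.9 to 47.2 CPM in 175Q. Of 10 endothelial genes the tight junction protein Cldn5 rose, at 40.0, 39.3, 37.5 and 46.9 CPM in 175QK772T, against 23.6, 23.7, 30.3 and 20.6 CPM in 175Q and 39.3, 38.1, 35.8 and 29.5 CPM in WT (0.73 ± 0.11, edgeR adjusted p = 0.00200), and the clotting factor Vwf fell (-0.53 ± 0.11, edgeR adjusted p = 0.00960), a call lost without either pair (0.0652 and 0.0988); the other 8 did not pass. None of 12 mural and meningeal genes (median 0.0084) and none of 5 red blood cell genes (median 0.20) passed; 1 mural and meningeal gene rose without 175Q replicate 3 or WT replicate 2.

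Some transmitter genes of the hindbrain nuclei differed. Of 13 genes of noradrenaline and serotonin neurons 2 rose and 0 fell (median 0.35), beside 5.34% of all tested genes higher. Slc6a2, the noradrenaline transporter, was at 2.2, 2.08, 1.55 and 1.81 CPM in 175QK772T, against 0.615, 1.02, 1.18 and 0.895 CPM in 175Q and 3.05, 3.58, 3.84 and 3.43 CPM in WT. The genotypes did not overlap (1.03 ± 0.18, edgeR adjusted p = 0.00405). Slc6a4, the serotonin transporter, was at 14.4, 11.3, 16.8 and 9.18 CPM in 175QK772T, against 5.43, 4.91, 9.78 and 4.35 CPM in 175Q (1.05 ± 0.27, edgeR adjusted p = 0.0282); 1 value of each group overlapped the other group, and the call was lost without 175QK772T replicate 1 or 3 or 175Q replicate 1, 2 or 4 (edgeR adjusted p up to 0.0957) and without either pair (0.105 and 0.198). Th, Dbh and Tph2, the enzymes of noradrenaline and serotonin synthesis, had log2 fold changes of 0.39 ± 0.14, 0.34 ± 0.19 and 0.57 ± 0.20 and did not pass. The list had 1 member higher without 175QK772T replicate 1 or 3 or 175Q replicate 1 or 4 and in either fit without a pair, and 4 without 175Q replicate 3.

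Neuropeptide genes went both ways, with 5 of 20 higher and 2 lower (median 0.28), beside 5.34% of all tested genes higher and 4.12% lower. Cck, cholecystokinin, was at 15.8, 12.6, 10.1 and 13.5 CPM in 175QK772T, against 5.78, 8.1, 6.86 and 7.31 CPM in 175Q (0.88 ± 0.14, edgeR adjusted p = 0.00221). In WT, Cck was at 19.7, 16.6, 23.8 and 14.6 CPM. Galanin, Gal (0.90 ± 0.22, edgeR adjusted p = 0.0208), lost its call without 175QK772T replicate 1, 3 or 4 or 175Q replicate 1 or 4 (edgeR adjusted p up to 0.0773) and without the libraries of strongest length trend (0.217). Npy, neuropeptide Y, was at 12.2, 11.8, 11.2 and 12.2 CPM in 175QK772T, against 6.19, 8.65, 6.54 and 6.8 CPM in 175Q (0.75 ± 0.13, edgeR adjusted p = 0.00457). In WT, Npy was at 12.1, 8.04, 12.2 and 8.83 CPM; WT overlapped both mutants while these did not overlap each other. Calca, the gene of calcitonin gene-related peptide, which motor neurons of the hindbrain make, fell to 17.3, 11.2, 20.8 and 13.4 CPM in 175QK772T, against 47.7, 21.5, 38.5 and 26 CPM in 175Q and 15.4, 14.7, 16.8 and 16.4 CPM in WT. The 175Q libraries were spread widely, and the value was -1.10 ± 0.22 (edgeR adjusted p = 0.00698); without the libraries rich in choroid plexus RNA it was -0.66 (edgeR adjusted p = 0.0513) and without those of strongest length trend -0.91 (0.0517).

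Uts2, urotensin II, was at 1.62, 0.755, 1.72 and 1.48 CPM in 175QK772T, against 3.38, 1.88, 4.56 and 2.39 CPM in 175Q (-1.14 ± 0.27, edgeR adjusted p = 0.0189). In WT, Uts2 was at 1.24, 1.09, 1.07 and 1.02 CPM. Its call was lost without 175Q replicate 1 or 3 (edgeR adjusted p up to 0.0658) and without either pair (0.137 and 0.109). The number of peptide genes that rose ran from 2 to 8 as single libraries were left out, with 2 without 175QK772T replicate 3 or 175Q replicate 1 or 4, 3 without 175QK772T replicate 1 or 4 or 175Q replicate 3, and 8 without 175Q replicate 2. Calca was also the 1 called gene among 11 cholinergic and motor neuron genes (median -0.033), or 9.09%, near the 9.46% of all tested genes. Chat, Slc18a3 and Slc5a7, which make and load acetylcholine, did not pass.

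Lists of fast transmission had small medians. Their counts stand beside 5.34% of all tested genes higher and 4.12% lower. Of 16 GABA and glycine genes 1 rose, the receptor subunit Gabra2, at 49.4, 53.6, 51.8 and 51.8 CPM in 175QK772T, against 39.5, 40.3, 41.2 and 36.5 CPM in 175Q (0.39 ± 0.06, edgeR adjusted p = 0.00321), and 15 did not pass (median 0.013). Of 16 glutamate genes 3 rose and 0 fell, or 18.8% called, and 12 had positive estimates (median 0.099). The AMPA receptor subunit Gria1 (0.20 ± 0.04, edgeR adjusted p = 0.0117) lost its call without the libraries rich in choroid plexus RNA (0.113), and the metabotropic receptor Grm3 (0.35 ± 0.08, edgeR adjusted p = 0.0150) lost it there (0.0623) and without 175Q replicate 1 (0.0546). The third, the scaffold Dlg4, was at the threshold (0.12 ± 0.04, edgeR adjusted p = 0.0499) and lost its call without 175QK772T replicate 1, 2, 3 or 4, 175Q replicate 1, 2, 3 or 4 or WT replicate 3 or 4 (edgeR adjusted p up to 0.148) and without either pair (0.253 and 0.176). 1 glutamate gene rose without 175Q replicate 1.

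The list of voltage-gated channels has 20 genes and also holds the inward rectifier Kcnj10. In it 3 rose and 1 fell, or 20% called (median -0.034), beside 9.46% of all tested genes. Kcnj10 was counted above with astrocytes, and Hcn2, the pacemaker channel, rose by 0.23 ± 0.05 (edgeR adjusted p = 0.00835), a call lost without the libraries of strongest length trend (0.0759). Kcnc1 (0.16 ± 0.05, edgeR adjusted p = 0.0460), a channel of fast-spiking neurons, and the sodium channel Scn1a, which was lower (-0.24 ± 0.06, edgeR adjusted p = 0.0318), lost their calls without either pair (0.118 and 0.0921 for Kcnc1, 0.143 and 0.244 for Scn1a); Kcnc1 also lost it without 175QK772T replicate 3 or 4, 175Q replicate 1, 2 or 3 or WT replicate 1, 3 or 4 (edgeR adjusted p up to 0.129), and Scn1a without 175QK772T replicate 1 or 3 or 175Q replicate 1 or 4 (edgeR adjusted p up to 0.112). Of 15 synaptic vesicle genes 1 rose, Stx1a (0.34 ± 0.09, edgeR adjusted p = 0.0253; median of the list -0.01), and its call was lost without 175QK772T replicate 1 or 4 or 175Q replicate 1 or 4 (edgeR adjusted p up to 0.0957) and without either pair (0.0665 and 0.167).

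Hox genes keep the position of hindbrain and cord cells along the body axis. Of 20 tested Hox genes 6 rose and 1 fell in 175QK772T against 175Q (median 0.29). Of all tested genes 5.34% were higher and 4.12% lower. Hoxb8 was at 39.9, 49.9, 40.2 and 51.8 CPM in 175QK772T, against 28.5, 25, 32.3 and 27.5 CPM in 175Q (0.69 ± 0.14, edgeR adjusted p = 0.00986). In WT, Hoxb8 was at 43, 21.9, 41.5 and 32.3 CPM. Hoxa5 was at 65.1, 58.4, 52 and 57.7 CPM in 175QK772T, against 36.6, 45.8, 43.1 and 46.6 CPM in 175Q (0.44 ± 0.07, edgeR adjusted p = 0.00357). In WT, Hoxa5 was at 55.5, 42.7, 58 and 43.4 CPM. In both genes 175QK772T and 175Q were apart and the WT libraries were spread over the gap.

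Hoxa7 went the other way, at 9.29, 8.83, 7.36 and 9.41 CPM in 175QK772T, against 12, 13.8, 14 and 13.5 CPM in 175Q (-0.61 ± 0.09, edgeR adjusted p = 0.00229; against WT 1.29 ± 0.10 in 175QK772T and 1.9 ± 0.10 in 175Q). In WT, Hoxa7 was at 4.06, 3.13, 3.62 and 3.5 CPM. Hoxb9 did not differ beyond its spread between the mutants, at 3.22 to 7.88 CPM in 175QK772T, against 4.29 to 7.01 CPM in 175Q (-0.03 ± 0.27, edgeR adjusted p = 0.955), and WT had 0.103 to 0.405 CPM. Hoxd9 was likewise at 0.861 to 1.99 CPM in 175QK772T, against 0.799 to 1.92 CPM in 175Q and 0.0206 to 0.156 CPM in WT. Hox clusters hold antisense transcripts, and whether the 26-week counts used strand is not stated, so reads of a Hox gene and of its antisense partner may be mixed. Hoxb5 (0.44 ± 0.09, edgeR adjusted p = 0.00979) lost its call without the libraries of strongest length trend (0.0916), where 3 Hox genes rose. Without those rich in choroid plexus RNA 4 rose. Hoxb2 (0.30, edgeR adjusted p = 0.0379) and Hoxc5 (0.37, edgeR adjusted p = 0.0499) were named after their values were seen. Their calls were lost without any of 7 and 9 single libraries and without either pair (0.131 and 0.242 for Hoxb2, 0.100 and 0.272 for Hoxc5). How far down the medulla was cut is not in the labels, and its part in the values of Hox genes was not tested. Of 8 markers of cerebellum and forebrain 2 rose, beside 5.34% of all tested genes higher. They were Drd2 (0.51 ± 0.08, edgeR adjusted p = 0.00207) and Calb1 (0.56 ± 0.12, edgeR adjusted p = 0.0132), both of which the hindbrain also expresses. Pcp2, Gabra6 and the other 4 did not pass, and Calb1 lost its call without either pair (0.104 and 0.0588).

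Some genes that glucocorticoids induce fell. Of 20 members 5 fell and 2 rose (median -0.098), beside 4.12% of all tested genes lower and 5.34% higher. The 5 were Hif3a and Plin4, given above, and Zbtb16, Fkbp5 and Sult1a1, and the 2 that rose were the metallothioneins Mt1 and Mt2, which metals induce as well. Mt1 was at 119, 116, 84.1 and 92.7 CPM in 175QK772T, against 55.1, 79.2, 75.7 and 75.8 CPM in 175Q and 119, 116, 111 and 98.1 CPM in WT (0.52 ± 0.09, edgeR adjusted p = 0.00499), and Mt2 rose by 0.44 ± 0.10 (edgeR adjusted p = 0.0185), a call lost without 175Q replicate 1, 3 or 4 (edgeR adjusted p up to 0.0636) and without either pair (0.118 and 0.106). Fkbp5 had values of 17, 18.3, 23 and 18.7 CPM in 175QK772T, against 25.8, 24.9, 21.1 and 21.1 CPM in 175Q, which overlapped (-0.27 ± 0.07, edgeR adjusted p = 0.0311), and its call was lost without 175QK772T replicate 1 or 4 or 175Q replicate 1, 2, 3 or 4 (edgeR adjusted p up to 0.0973) and without either pair (0.106 and 0.187). Zbtb16 (-0.58 ± 0.15, edgeR adjusted p = 0.0276) lost its call without 175QK772T replicate 4 or 175Q replicate 3 (edgeR adjusted p up to 0.0859) and without the libraries of strongest length trend (0.0576), and Sult1a1 (-0.58 ± 0.17, edgeR adjusted p = 0.0418) without 175QK772T replicate 1, 3 or 4, 175Q replicate 1, 2 or 4 or WT replicate 1 or 3 (edgeR adjusted p up to 0.122) and without the libraries of strongest length trend (0.252). Sgk1 was at 36 to 77.5 CPM in 175QK772T and 53.6 to 123 CPM in 175Q and did not pass (edgeR adjusted p = 0.0824). The number that fell was 2 without 175QK772T replicate 4 and 3 without 175Q replicate 1 or 4; it was 4 without the libraries rich in choroid plexus RNA and 2 without those of strongest length trend. The number that rose was 1 without 175Q replicate 1, 3 or 4 and in both of those fits.

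Of 16 clock genes 5 fell and 0 rose in 175QK772T against 175Q (median -0.083), beside 4.12% of all tested genes lower. The daily clock turns on the activators Clock and Arntl, which bind E-boxes, and on the period and cryptochrome proteins, which hold those activators back. The 5 were Cry1, Per3, Cry2, Per2 and Ciart, and 11 did not pass, Per1 among them (-0.43 ± 0.18, edgeR adjusted p = 0.132). Cry1 was at 16.4, 14, 16.6 and 15.6 CPM in 175QK772T, against 22.4, 21.4, 18.5 and 20.6 CPM in 175Q (-0.40 ± 0.07, edgeR adjusted p = 0.00420). In WT, Cry1 was at 13.8, 14.8, 14.4 and 14.2 CPM. Per3 was at 42.9, 37, 48 and 39.7 CPM in 175QK772T, against 61, 59.3, 47.8 and 52.1 CPM in 175Q (-0.39 ± 0.08, edgeR adjusted p = 0.00793). In WT, Per3 was at 45.4, 59.6, 56.9 and 64.9 CPM. Cry1 was apart in the 2 mutants, and the highest Per3 value of 175QK772T lay just above the lowest of 175Q.

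Cry2 (-0.20 ± 0.04, edgeR adjusted p = 0.0105) and Per2 (-0.50 ± 0.11, edgeR adjusted p = 0.0151) fell as well. The fifth, Ciart, a repressor that binds the activators, was at 11.2, 8.97, 13.1 and 11.8 CPM in 175QK772T, against 13.1, 15.9, 15.9 and 18.7 CPM in 175Q (-0.51 ± 0.14, edgeR adjusted p = 0.0379); it was named after its values were seen and lost its call without 175QK772T replicate 1, 2 or 4, 175Q replicate 3 or 4 or WT replicate 3 (edgeR adjusted p up to 0.131). The activator Arntl (0.13 ± 0.10) and the output genes Dbp (-0.01 ± 0.14) and Nr1d1 (0.16 ± 0.08) did not pass, nor did Clock, with an estimate near 0; 1 member rose without WT replicate 2. Per2 lost its call without 175Q replicate 1 or 4 (edgeR adjusted p up to 0.0603). Without the libraries rich in choroid plexus RNA 2 members fell, Per2, Per3 and Cry2 losing their calls (edgeR adjusted p = 0.0541, 0.0540 and 0.0870), 4 fell without those of strongest length trend, where Per2 lost its call (0.0903), and 3 fell without 175Q replicate 4. The hour at which tissue was taken is not in the labels, and its part in these values was not tested.

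Of the 16 clock genes 14 had a promoter in the RefSeq table (GRCm38.p6, 250 bases before to 50 after the start). The E-box CACGTG, searched on both strands, was in 5 of them, Bhlhe41, Ciart, Cry1, Per1 and Tef, and in 7.15% of all 32851 promoters. The D-box TTATGTAA, searched likewise, was in that of Per3 and in 0.938% of all. The 3 promoters of genes that fell and hold such letters are shown with them in capitals; a match describes the letters in this window. They lie at chr10:85185005-85185304 for Cry1, chr3:95882179-95882478 for Ciart and chr4:151044616-151044915 for Per3, all on the minus strand.

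Cry1 promoter: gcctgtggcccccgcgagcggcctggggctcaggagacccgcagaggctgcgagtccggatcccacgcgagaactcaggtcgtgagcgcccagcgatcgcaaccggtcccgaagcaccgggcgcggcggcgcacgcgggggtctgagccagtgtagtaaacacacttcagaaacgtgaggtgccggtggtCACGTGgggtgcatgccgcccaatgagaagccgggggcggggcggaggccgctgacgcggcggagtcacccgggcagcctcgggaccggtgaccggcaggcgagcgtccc

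Ciart promoter: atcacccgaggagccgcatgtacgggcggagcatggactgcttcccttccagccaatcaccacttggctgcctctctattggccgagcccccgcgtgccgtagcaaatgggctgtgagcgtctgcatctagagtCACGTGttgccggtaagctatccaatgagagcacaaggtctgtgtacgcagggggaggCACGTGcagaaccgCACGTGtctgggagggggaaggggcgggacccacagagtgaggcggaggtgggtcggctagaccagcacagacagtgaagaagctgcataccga

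Per3 promoter: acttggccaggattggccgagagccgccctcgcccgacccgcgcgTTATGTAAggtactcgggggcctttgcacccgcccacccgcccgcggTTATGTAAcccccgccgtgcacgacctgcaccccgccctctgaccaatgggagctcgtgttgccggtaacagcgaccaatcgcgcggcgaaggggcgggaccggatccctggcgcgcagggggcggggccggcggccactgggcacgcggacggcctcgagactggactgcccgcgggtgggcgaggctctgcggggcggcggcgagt

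**Figure D4:**
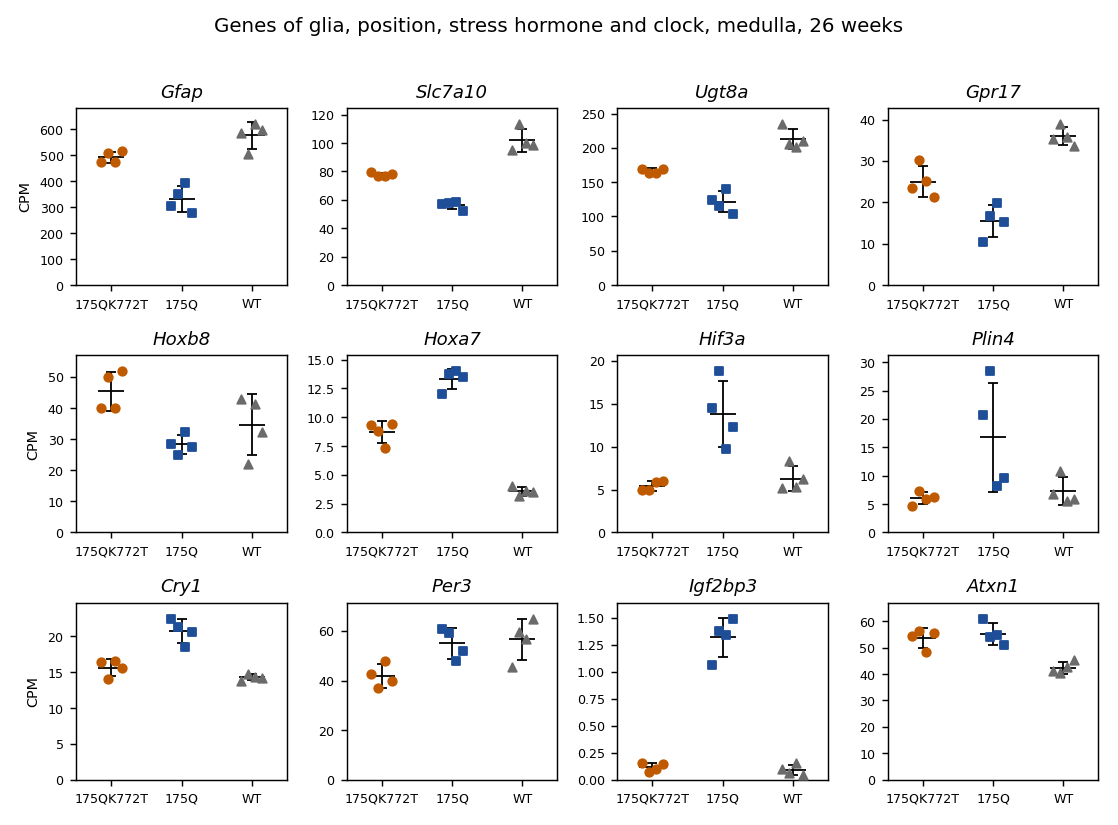
CPM of 12 genes in each medulla library of 175QK772T (circles), 175Q (squares) and WT (triangles); the bar is the mean and the whiskers ± 1 SD of 4 mice. Gfap and Slc7a10 were higher in every 175QK772T than in every 175Q library, Hif3a and Cry1 lower, Igf2bp3 was high in 175Q alone, and Atxn1 overlapped between the mutants.

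Of 12 heat shock and chaperone genes 4 rose, 0 fell and 8 did not pass (median 0.19), beside 5.34% of all tested genes higher. Hsph1, a chaperone of the Hsp110 family, was at 286, 315, 269 and 250.5 CPM in 175QK772T, against 199, 198, 213 and 222 CPM in 175Q (0.43 ± 0.05, edgeR adjusted p = 0.000785). In WT, Hsph1 was at 291, 246, 243 and 233 CPM. Hspe1, Stip1 and Chordc1 rose by 0.15 to 0.27 and lost their calls in both fits without a pair of libraries, which left Hsph1 alone. The list had 2 members higher without any of the 4 175QK772T libraries or 175Q replicate 3 or 4 and 1 without 175Q replicate 1. Of 14 genes of the unfolded protein response 1 rose, Sdf2l1 (0.54 ± 0.15, edgeR adjusted p = 0.0404; median of the list 0.17), a call lost without 175QK772T replicate 1, 2 or 4, 175Q replicate 1, 2, 3 or 4 or WT replicate 1 (edgeR adjusted p up to 0.104) and without either pair (0.206 and 0.166).

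Of 18 nuclear genes for respiratory chain subunits 4 rose and 0 fell (median 0.094), beside 5.34% of all tested genes higher. Ndufa1, a short gene for a subunit of complex I, was at 55.1, 53.3, 50.9 and 44.8 CPM in 175QK772T, against 35.2, 38.4, 39.9 and 44 CPM in 175Q (0.38 ± 0.05, edgeR adjusted p = 0.00145). In WT, Ndufa1 was at 45.2, 40.1, 47 and 43.9 CPM. Cox7c, Cox6c and Uqcrfs1 rose by 0.18 to 0.24 and lost their calls without either pair, which left 1 member higher in each of these fits; 2 rose without 175QK772T replicate 1 or 175Q replicate 1, 3 or 4. Of 18 cholesterol genes 2 rose and 2 fell (median 0.08), beside 5.34% of all tested genes higher and 4.12% lower. The enzyme Lss fell (-0.34 ± 0.06, edgeR adjusted p = 0.00499) and the enzyme Cyp51 rose (0.21 ± 0.05, edgeR adjusted p = 0.0147); the call of Cyp51 was lost without 175Q replicate 4 (0.0632) and without the libraries of strongest length trend (0.0650). The list's higher calls numbered 5 without 175QK772T replicate 2, 1 without 175QK772T replicate 1, 3 or 4 or 175Q replicate 1, and 0 without 175Q replicate 4 or the libraries of strongest length trend. Its lower calls numbered 1 without 175QK772T replicate 1, 2 or 4, 175Q replicate 1, 3 or 4 or WT replicate 3, and 1 in both fits without a pair. Of 11 immediate early genes 2 rose (median 0.26): Arc, which acts at synapses, was at 31.1, 31.5, 27.8 and 28.1 CPM in 175QK772T, against 16.3, 22.6, 23.5 and 20.5 CPM in 175Q and 32.9, 37.8, 38.6 and 39.3 CPM in WT (0.51 ± 0.10, edgeR adjusted p = 0.00546), and Egr1 rose by 0.42 ± 0.11 (edgeR adjusted p = 0.0262), a call lost without 175QK772T replicate 1 or 3 or 175Q replicate 1 or 3 (edgeR adjusted p up to 0.0780) and without either pair (0.0977 and 0.158). None of 14 interferon-induced genes passed (median 0.062), and 1 rose without 175QK772T replicate 2, 175Q replicate 2 or 3 or WT replicate 2.

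Genes tied to ataxin-1 itself were set beside the 9.46% of all tested genes that were called. With lists this short, counts near that share say little about them. None of 15 genes held to be targets of capicua, among them ETS factors and MAPK feedback genes, passed (median 0.081); 1 rose without 175Q replicate 3. Etv4 was at 23, 21.9, 21.3 and 25.3 CPM in 175QK772T, against 20.9, 20.7, 25.4 and 23.6 CPM in 175Q and 14.8, 15.1, 13.6 and 13.9 CPM in WT, so that both mutants lay above WT and overlapped each other (0.01 ± 0.08, edgeR adjusted p = 0.932). Etv5 (0.03 ± 0.05) and Vgf (-0.07 ± 0.09) did not pass. Of 16 ataxins and partners of ataxin-1 1 rose and 2 fell, or 18.8% called (median -0.086). Cic, the gene of capicua, had a log2 fold change of -0.15 ± 0.06 (edgeR adjusted p = 0.136) and Atxn1l, a close relative of ataxin-1, of -0.18 ± 0.06 (edgeR adjusted p = 0.0539). Anp32a (0.19 ± 0.05) and Atxn7 (-0.26 ± 0.07) passed with edgeR adjusted p = 0.0198 and 0.0266. Both calls were lost without either pair (edgeR adjusted p of 0.0611 to 0.172) and without single libraries: Anp32a without 175QK772T replicate 2 or 3 or 175Q replicate 1 or 4 (edgeR adjusted p up to 0.0813), and Atxn7 without 175QK772T replicate 1 or 4 or 175Q replicate 1 or 4 (edgeR adjusted p up to 0.102). Of 15 genes of other inherited ataxias 1 rose, Elovl5 (0.24 ± 0.06, edgeR adjusted p = 0.0315; median of the list -0.03), a call lost without 175QK772T replicate 1, 3 or 4 or 175Q replicate 1 or 4 (edgeR adjusted p up to 0.113) and without either pair (0.113 and 0.216). Of 18 splicing genes 1 fell, the neuronal factor Srrm4 (-0.30 ± 0.06, edgeR adjusted p = 0.00514; median of the list -0.077), a call lost without the libraries of strongest length trend (0.0523).

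**Figure D5:**
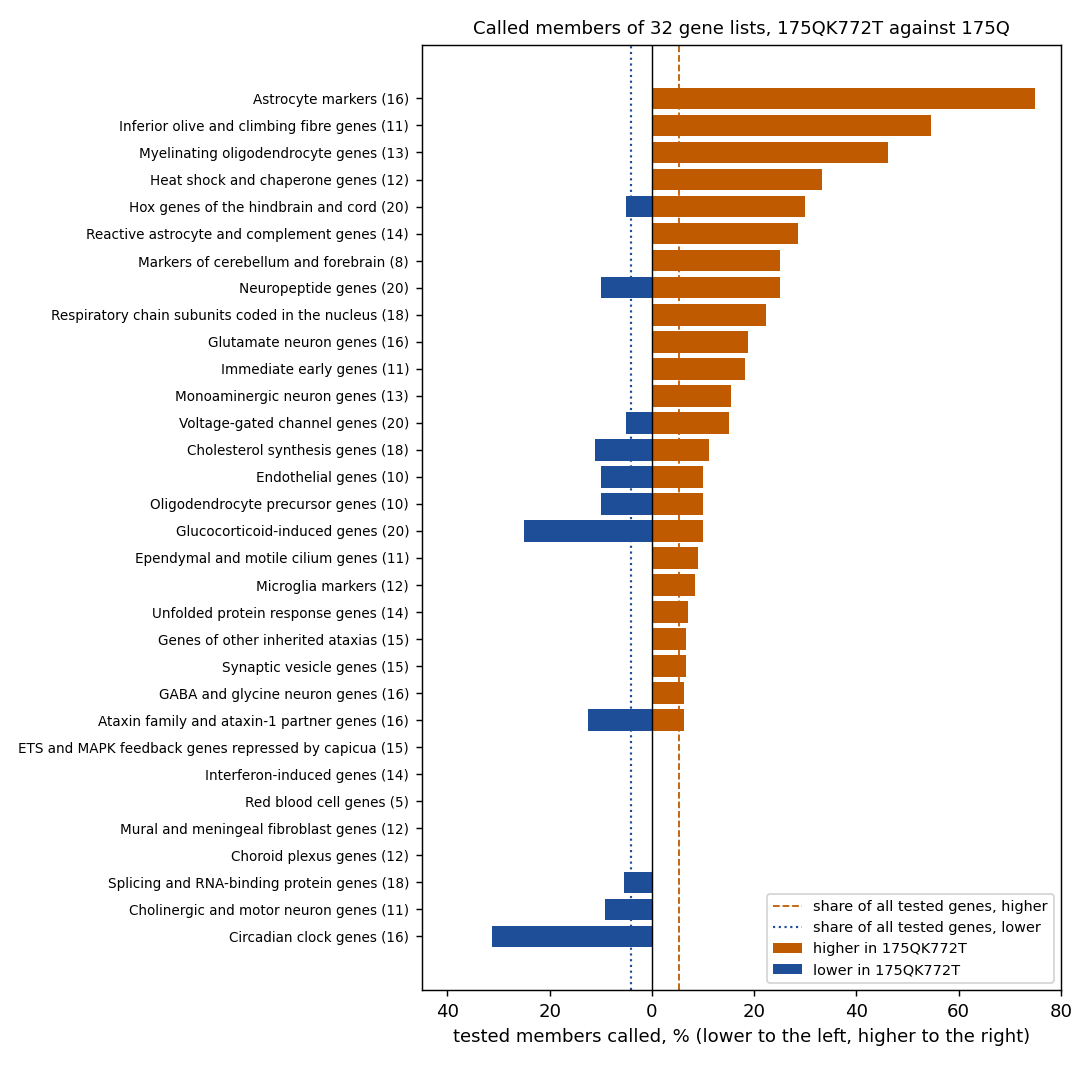
Share of the tested members of 32 gene lists that were called higher (right) or lower (left) in 175QK772T against 175Q at an edgeR adjusted p below 0.05; the number of tested members stands in brackets, and the vertical lines mark the shares among all 19787 tested genes, 5.34% higher and 4.12% lower. Astrocyte and inferior olive genes reach furthest to the right and clock genes furthest to the left.

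The difference between 175QK772T and 175Q was set against that in the cerebellum of the same mice, and between the sexes. Taken within each mouse over 24 libraries of 3 genotypes, the difference in the medulla differed from that in the cerebellum for 1 of 20893 genes, Hoxb6 (0.00479%), with 906 genes at an unadjusted p below 0.05 and 23 called by DESeq2. Hoxb6 had at most 1 count in the cerebellum libraries of 175QK772T and up to 44 in those of 175Q, and in the medulla its log2 fold change was 0.36 ± 0.13 (edgeR adjusted p = 0.0905). Without 175QK772T replicate 1 0 genes passed, and without 175QK772T replicate 2 Col5a1 passed in place of Hoxb6. None of the 90 genes named by the rule passed (lowest edgeR adjusted p of 0.111). Several of the largest rises were close to absent from the mutant cerebellum, so the test could say little about them. Ano2 reached at most 0.134 CPM there, Htr5b 0.281 CPM and Pou4f1 0.573 CPM. Without the 2 mice of high mitochondrial share in the cerebellum, 2508 of 21026 genes had an unadjusted edgeR p below 0.05 and 7 were called. A missed threshold here does not show that the 2 regions changed alike. Between females and males the difference in the medulla passed for 0 genes by edgeR, with 966 at an unadjusted p below 0.05 and 1 called by DESeq2; each sex had 2 mice per genotype.

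At 10 weeks of age other mice of the same genotypes had been sampled for the brainstem, which holds the medulla, in another sequencing batch. There 175QK772T replicates 1, 2 and 3 were female and replicate 4 male, while 175Q replicates 1 and 2 were female and 3 and 4 male. There 12 of 21130 genes (0.0568%) were called for 175QK772T against 175Q, among them 2 of the 90 named genes. Slc7a10 was higher by 0.28 ± 0.04 and Slc1a2 by 0.34 ± 0.05 at 10 weeks (edgeR adjusted p = 0.0157 and 0.026), beside 0.46 ± 0.05 and 0.41 ± 0.06 in the medulla at 26 weeks. These calls did not hold without single brainstem libraries: both were lost without 175QK772T replicate 2 or 3 or 175Q replicate 1 or 2, Slc1a2 also without 175QK772T replicate 1 or 175Q replicate 3 or 4, and Slc7a10 also without 175QK772T replicate 4, with edgeR adjusted p up to 0.202 for Slc1a2 and 0.146 for Slc7a10. Gpr17 was at 0.59 ± 0.11 (edgeR adjusted p = 0.117) in the brainstem and did not pass there. Htr5b (0.24 ± 0.49), C1ql1 (-0.11 ± 0.27) and Hif3a (0.18 ± 0.24) did not pass at 10 weeks, and their signs turned when single libraries were left out. Age, dissection, batch and the balance of the sexes differ together between these samples and cannot be told apart, and no test of the difference was made.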

How the data were processed

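The deposited tables hold whole-number counts of read pairs per gene, which the authors made, per the submitters' processing notes, with bcl2fastq 2.20.0, Trimmomatic 0.33, HISAT2 2.1.0 and featureCounts of Subread 1.6.2 on GRCm38. Per the labels' protocols, poly(A) RNA was sequenced as 150-nt read pairs in 2 batches by age. Whether the 26-week counts used strand is not stated in the sources used here.

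The 12 medulla libraries of 26 weeks were fitted together with edgeR 4.0.16 (R 4.3.3; quasi-likelihood test, TMM factors, filterByExpr by genotype, terms for genotype and sex), and genes with a Benjamini-Hochberg adjusted p below 0.05 were called. Standard errors were taken from the F statistic, and CPM used the normalized library sizes. Differences between medulla and cerebellum were fitted within mice, those between sexes as an interaction, and the brainstem libraries of 10 weeks apart from the rest. DESeq2 1.42.0 was an alternative. The script was tested on simulated data.

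Named genes were Atxn1, the 12 largest rises and the 12 largest falls among called genes without overlap and with a mean of at least 1 CPM, the 6 of smallest p, and up to 4 called genes of smallest p per list; others are said to be named after their values were seen, or are members of a list given to show its range. The lists and the groups compared were chosen with earlier results of these data known. Choroid plexus RNA and the trend with gene length were looked for after seeing the data, and so were the fits without those libraries and with the length offset. Totals were 32.5 to 54.7 M read pairs per library, and the error of a value is larger for genes of few counts. No 2 libraries were alike within sampling noise. Same-numbered mice of the 2 mutants did not vary together. They were of opposite sex, so whether the numbers pair mice cannot be told from this. A few of the genes named by this rule or used as markers are not reported here.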

Additional observations from a re-analysis of the deposited data

Results flagged for a closer look

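Within each genotype's 4 medulla libraries, each of the 90 named genes was checked for a single library far from the other 3, by the gap to the nearest library as a share of the whole range; a share above Dixon's 95% critical value for 4 was noted. Of the 270 groups checked, 8 are given here, and chance alone gives about 1 in 20. In 175Q, replicate 1 was low for Cox7c (share 0.846) and for Mt1 (0.857), and replicate 3 was high for Tac2 (0.868). The other 5 were in WT: replicate 1 stood apart for Ighm (0.839), Lss (0.928) and Olfr920 (0.923), and replicate 4 for Bmp4 (0.89) and Vmn2r1 (0.926). Ighm was at 153, 64.2, 73.3 and 58 CPM in the 4 WT medullas, so that 1 WT library was more than the others by a wide margin.

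The difference of 175QK772T over 175Q differed between medulla and cerebellum for Hoxb6, by 6.22 ± 0.63 on the log2 scale (edgeR adjusted p = 0.00858). The cerebellum libraries of 175QK772T held at most 1 count of this gene, so the size rests on the prior count of the fit, and the call was lost without 175QK772T replicate 1 or 2.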

How the results depend on the processing

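The 1872 calls (1057 higher, 815 lower) were 1134 with an added limit of 0.25 on the absolute log2 fold change. DESeq2 called 2631 genes, 1232 of them lower, and a fit with no sex term called 1288, 518 of them lower. Leaving out 1 library at a time gave 730 to 2056 calls, 465 to 1148 higher and 265 to 908 lower. Without the 2 libraries rich in choroid plexus RNA there were 668 (440 higher, 228 lower), and without the 2 of strongest length trend 502 (337 higher, 165 lower); both settings were added after seeing the data. Without a filter on low counts 2680 were called, 31 of them genes outside the filter. Same-numbered 175QK772T and 175Q mice had correlations of -0.208 to -0.0676. These mice were of opposite sex and sex was not taken out, so the correlations cannot show whether replicate numbers pair mice. A fit with the replicate number as a block called 1313 (769 higher, 544 lower). The difference between medulla and cerebellum was called for 1 gene, against 3 with no filter, 0 with no region by sex term, 23 by DESeq2, 7 without the 2 mice of high mitochondrial share in the cerebellum and 0 to 1 without single mice. The difference between sexes was called for 0 genes, against 265 with no filter, 4 of them outside it, and 1 by DESeq2. In the brainstem at 10 weeks 2 of the named genes were called, against 4 with no sex term, 8 by DESeq2, 0 with the replicate block and 0 to 1 without single libraries. Signs turned for Atxn1 in the medulla (-0.04; -0.076 to 0.017 without single libraries, above 0 without 175QK772T replicate 3 or 175Q replicate 1, 0.048 with the length offset and 0.0067 without the libraries of strongest length trend) and, in the brainstem, for Htr5b (0.24; -0.12 with the replicate block, -0.42 to 0.52 without single libraries, below 0 without 175QK772T replicate 2 or 175Q replicate 1), C1ql1 (-0.11; -0.31 to 0.065, above 0 without 175QK772T replicate 1 or 175Q replicate 2) and Hif3a (0.18; -0.28 to 0.35, below 0 without 175QK772T replicate 4). The causes were not tested. Of the 89 called named genes 44 were called in all settings and 52 each in the fits without a pair of libraries; 82 were called with the length offset. The labels and counts do not give the hour of sampling, the extent of the dissection or the share of each cell type, and with 4 mice a genotype a difference that missed the threshold is not shown to be absent.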

Other observations

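The position of the genes was compared with the place of the knock-in. Within 10 Mb of Atxn1, where mutant chromosomes can keep DNA of the embryonic stem cells in which the allele was made, 177 genes were tested and 14 were higher and 3 lower in 175QK772T than in 175Q, or 9.6%, beside 9.46% of all tested genes. Among single chromosomes the share called ran from 6.87 to 10.7%. The lowest was that of chromosome 13, which holds Atxn1, with 33 of 786 tested genes higher and 21 lower. The share in the window was thus near that of all tested genes, though above that of its own chromosome, which includes the window. Both groups compared carry a knock-in allele of Atxn1. The part of flanking DNA in these values was not tested.

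Of 26 tested genes of the mitochondrial genome 6 were higher and 0 lower in 175QK772T than in 175Q, beside 5.34% of all tested genes higher and 4.12% lower. This count was not taken with the length offset or without single libraries, and the part of the length trend in it was not tested. Protein-coding genes made up 92.6% of the genes called higher, 89.1% of those called lower and 76.8% of the rest. These classes also differed in level, with medians of 34.6, 45.6 and 11 CPM, and the part of level in the shares was not tested.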
